A study of Caenorhabditis elegans with 2 samples.

Results

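The 1903 sites described here are weaker ChIP-seq peaks of the nuclear hormone receptor NHR-43 that were found in both biological replicates. They come from 30000 peaks that the authors called by this method (chromatin immunoprecipitation followed by sequencing) on the pooled reads of both replicates. The sites were chosen by measured values: the peak is absent from the authors' thresholded list of 3889 peaks, its pooled signal is at least 30, and its summit lies within 100 bp of a summit in the relaxed list of each replicate. The thresholded list is filtered by the irreproducible discovery rate (IDR), a measure of the consistency of peak ranks. The relaxed lists hold peaks before that filter. Not every thresholded peak was matched in each replicate, and 78.1% of the thresholded nuclear peaks had a summit within 100 bp in both. The sites are set beside the 3870 nuclear peaks of the thresholded list and beside 3749 weaker peaks of pooled signal at least 30 that were not found in both replicates, called unshared weaker peaks below.

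The study mapped 1 transcription factor in 1 condition, so there is no comparison between treatments. Whole hermaphrodite Caenorhabditis elegans of strain OP477 (genotype unc-119(tm4063) III; wgIs477) were taken at the L3 larval stage, 36.5 h after synchronisation as starved L1 larvae that had been bleached out as embryos. Both biological replicates share this genotype and stage, and wgIs477 is the transgene that adds a C-terminal GFP-FLAG tag to NHR-43, which was precipitated with an antibody to GFP. The protein was therefore seen only where the transgene is expressed, and signals of all tissues are mixed in whole animals. No tissue marker can be read from DNA fragments, so no site is assigned to a cell type.

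Nuclear hormone receptors are transcription factors with a zinc finger domain that binds DNA and a pocket that can hold a small lipophilic ligand. The worm family is very large and many of its members derive from an ancestor related to the mammalian receptor HNF4. Many receptors of this class bind the core sequence AGGTCA, alone or as a repeat. In ChIP-seq, fragments held by the precipitated protein pile up around the place where it sits, directly or through another protein, and the summit is the position of the highest pile. Open chromatin, highly transcribed genes and tRNA genes are known to collect such fragments for many factors in this animal.

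The following reference sequences are windows that reach 75 bp to each side of the summits of weaker shared sites, taken from WBcel235 (the same assembly as ce11), + strand, 5′ to 3′. The first group shows words that were more frequent at these summits than beside them. The Y97E10C.1 site (V:7728232-7728382) has in capitals GAGACGCAG, the other strand of the word CTGCGTCTC, which resembles the known site of the zinc finger protein EOR-1. It overlaps a GAGAGA repeat by 4 letters, and the acaa-2 site (III:13344696-13344846) has CTGCGTCTC itself. The pifk-1 site (X:924590-924740) has GAGAGA in capitals, the ril-1 site (V:14524338-14524488) has CCGCCC, a word of the kind bound by Sp1-type zinc finger proteins, and the F13D11.4 site (X:5835186-5835336) has the E-box CACGTG.
Y97E10C.1: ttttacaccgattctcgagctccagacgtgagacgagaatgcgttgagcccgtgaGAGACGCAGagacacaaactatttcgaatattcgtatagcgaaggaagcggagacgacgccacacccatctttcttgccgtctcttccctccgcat
acaa-2: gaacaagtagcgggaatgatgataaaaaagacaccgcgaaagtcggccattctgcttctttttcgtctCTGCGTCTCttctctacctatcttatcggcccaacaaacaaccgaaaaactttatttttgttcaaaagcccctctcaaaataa
pifk-1: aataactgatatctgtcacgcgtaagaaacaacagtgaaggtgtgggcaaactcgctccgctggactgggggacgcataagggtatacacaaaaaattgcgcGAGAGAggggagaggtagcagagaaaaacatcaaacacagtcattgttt
ril-1: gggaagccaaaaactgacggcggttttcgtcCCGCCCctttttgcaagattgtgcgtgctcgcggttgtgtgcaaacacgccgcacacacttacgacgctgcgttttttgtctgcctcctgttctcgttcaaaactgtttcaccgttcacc
F13D11.4: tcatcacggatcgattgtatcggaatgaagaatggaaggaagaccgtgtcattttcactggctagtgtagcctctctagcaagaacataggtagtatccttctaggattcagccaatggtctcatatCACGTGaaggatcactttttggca

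The second group shows the tRNA type and the receptor type. The dylt-2 site (X:8939529-8939679) is intronic, 555 bp past the 5′ end of dylt-2, and its summit is inside a tRNA gene on the + strand. The capitals mark GGTTCGA, the core of the B box at which RNA polymerase III factors bind. The txdc-12.1 site (II:12239559-12239709) has TGACCT, the other strand of the receptor core AGGTCA. The smk-1 site (V:8607495-8607645) and the C34C12.6 site (III:3480367-3480517) have TGACCTTGA and the F44E2.6 site (III:8844240-8844390) has TCAAGGTCA, the same extended receptor word on either strand. These are 3 of the 4 weaker shared sites that held it.
dylt-2: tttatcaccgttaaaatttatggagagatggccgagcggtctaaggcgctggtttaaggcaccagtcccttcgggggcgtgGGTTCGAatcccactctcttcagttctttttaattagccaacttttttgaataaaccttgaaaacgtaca
txdc-12.1: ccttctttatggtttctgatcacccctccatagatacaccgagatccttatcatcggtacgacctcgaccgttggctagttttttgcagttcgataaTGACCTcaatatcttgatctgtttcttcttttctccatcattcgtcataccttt
smk-1: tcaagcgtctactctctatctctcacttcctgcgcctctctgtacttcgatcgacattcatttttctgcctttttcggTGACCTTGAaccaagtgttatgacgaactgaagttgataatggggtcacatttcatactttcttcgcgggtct
C34C12.6: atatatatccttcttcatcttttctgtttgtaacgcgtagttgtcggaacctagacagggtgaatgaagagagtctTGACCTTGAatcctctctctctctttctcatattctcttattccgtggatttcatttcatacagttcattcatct
F44E2.6: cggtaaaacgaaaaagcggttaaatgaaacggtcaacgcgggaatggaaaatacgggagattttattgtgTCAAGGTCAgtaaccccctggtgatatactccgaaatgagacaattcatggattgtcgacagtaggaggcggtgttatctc

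The choice of sites fixed their pooled signal, which is the authors' own score and has no unit. It ran from 30 to 61.42 with a median of 42.3, against a median of 37.8 for the unshared weaker peaks and 110 for the thresholded peaks. The thresholded list was the top of the pooled list by signal, so the weaker shared sites hold ranks from 3890 to 9539. The highest of them (61.42) had its summit inside tos-1 and nearest to the 5′ end of coq-6, which encodes an enzyme of ubiquinone synthesis. It is next to the lowest thresholded peak, near rpn-2 (61.42), which encodes a proteasome subunit. At the lower limit, the last sites inside were near F21A9.1 (30.0111), lmd-1 (30.0073) and C14B1.2 (30.0031). The first outside were near C06A6.2 (29.9972), unc-69 (29.9888) and acs-13 (29.9871). The −log10 q that the authors gave each peak was at its ceiling of 2.69 for 762 of the sites (40.04%).

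Of the 5652 nuclear peaks with pooled signal at least 30 that missed the thresholded list, 33.7% were found in both replicates. Of the others, 2203 were found in replicate 2 alone, 897 in replicate 1 alone and 649 in neither. The share found in both went up with the pooled signal, from 26.7% of peaks between 30 and 40 to 36.9% between 40 and 50 and 48.2% between 50 and 61.42. Among the thresholded nuclear peaks it was 78.1%. The rule used these values, so they are given without a test.

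Each weaker shared site has a signal in each replicate, on a scale that belongs to that replicate's list. In replicate 1 the signal ran from 2.47 to 59.58 with a median of 9.41, and the median rank was 8954 of 29315 peaks. In replicate 2 it ran from 6.08 to 77.58 with a median of 20.6, and the median rank was 8222 of 30000. Most of the sites were thus weak in both replicates: 1432 (75.3%) ranked below the first 3889 peaks in each, and only 25 (1.31%) ranked within the first 3889 of both. Across the 1903 sites the signals of the replicates had a Spearman correlation of −0.11, which describes sites that all share a narrow range of pooled signal. The median distance from the pooled summit was 36 bp to the replicate 1 summit and 18 bp to the replicate 2 summit, and 48 bp separated the replicates' own summits.

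**Figure D1:**
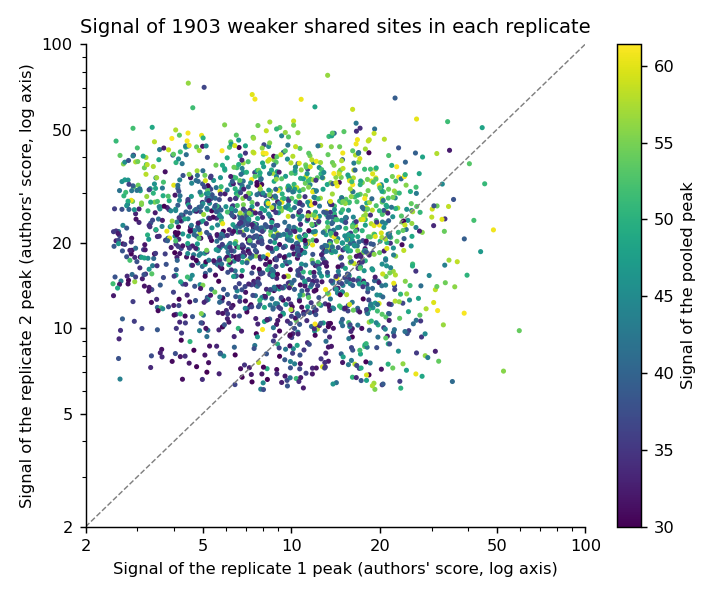
Each point is 1 of the 1903 weaker shared sites, with the authors' signal of the matching peak in replicate 1 on the x axis and in replicate 2 on the y axis (log axes), coloured by the pooled signal. The dashed line marks equal values, and the points form a cloud without a diagonal (Spearman −0.11) in which the highest pooled signals lie towards the upper right.

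The sites that ranked best in both replicates show what agreement there was. The best was 2070 bp downstream of the 5′ end of swt-3, which encodes a sugar transporter of the SWEET family, with a pooled signal of 60.26 and ranks of 2401 and 2334. The site near gpdh-3, for a glycerol-3-phosphate dehydrogenase, had a pooled signal of 51.55 and ranks of 1821 and 2410. A site in a coding exon of the cuticlin gene cut-2, whose product is part of the cuticle, had 48.26 and ranks of 1313 and 2539. These 3 sites lay 319, 547 and 639 bp from a thresholded summit. The site 149 bp upstream of cal-5, for a calmodulin-related protein, was far from any (7569 bp), with a pooled signal of 39.15 and replicate signals of 22.54 and 64.54. The other best-ranked sites were near sprr-2, nas-4, F55H12.2, wht-7, C07A9.9 and F54D8.6, with pooled signals from 32.33 to 58.08. In the same order, they lay 199, 894, 208, 204, 752 and 461 bp from a thresholded summit. Among all 1903 sites, 81 (4.26%) lay within 500 bp of a thresholded summit, against 6.51% of the unshared weaker peaks, and 779 (40.9%) were more than 5000 bp away from any.

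Weaker shared sites were found in promoters less often than thresholded peaks and in coding exons more often. The promoter window of a protein-coding gene began 1000 bp before its 5′ end and closed 200 bp inside it. Such windows held 559 of the 1903 summits (29.4%, exact 95% interval 27.3 to 31.5). The share was 42.5% of the thresholded peaks (odds ratio 0.563, Fisher's exact test, two-sided, adjusted p = 1.30e-21), and these windows cover 21.5% of the nuclear genome. Coding exons outside these windows held 401 of the summits (21.1%) against 8.19% of the thresholded peaks (odds ratio 2.99, Fisher's exact test, adjusted p = 1.90e-40) and 20.04% of the genome. The share in coding exons was thus near that of the genome itself.

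Introns held 25.07% of the weaker shared summits against 21.3% of the thresholded (odds ratio 1.23, Fisher's exact test, adjusted p = 0.00454). The space between protein-coding genes held 19.1% against 25.09% (odds ratio 0.706, Fisher's exact test, adjusted p = 1.47e-06). Outside promoter windows, introns make up 30.4% of the nuclear genome and the space between genes 25.04%, so the weaker shared sites lay below both shares. The X chromosome held 339 sites (17.8%) against 21.3% of the thresholded peaks (odds ratio 0.800, exact adjusted p = 0.00454), and X makes up 17.7% of the nuclear genome. The middle 50% of each autosome held 72.8% of autosomal sites against 69.4% (odds ratio 1.18, exact adjusted p = 0.0318). Peaks are not replicates of a condition, so these p-values describe where the peaks of 1 data set lie. The differences in introns, on X and in the middle of the autosomes missed the threshold when summits had to lie within 50 bp (exact adjusted p = 0.190, 0.0657 and 0.125) or the signal had to be at least 50 (adjusted p = 0.456, 0.0716 and 0.491).

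Against the unshared weaker peaks the differences in location were small. Promoter windows held 29.4% of the shared and 26.5% of the unshared peaks (odds ratio 1.16, Fisher's exact test, adjusted p = 0.0320), and coding exons 21.1% and 24.5% (odds ratio 0.825, adjusted p = 0.00932). The other 4 location measures had exact adjusted p from 0.833 to 0.883. Shared peaks had a higher pooled signal than unshared ones, and within bins of signal the promoter shares were 25.8% and 24.3% between 30 and 40, 29.5% and 29.4% between 40 and 50, and 34.9% and 29.7% between 50 and 61.42. With the signal bins held fixed neither difference passed the threshold, with a Mantel-Haenszel odds ratio of 1.097 for promoters (exact conditional test over the bins, adjusted p = 0.375) and 0.8604 for coding exons (adjusted p = 0.149). Among peaks of like signal, a difference in location between shared and unshared weaker peaks was therefore not detectable here.

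**Figure D2:**
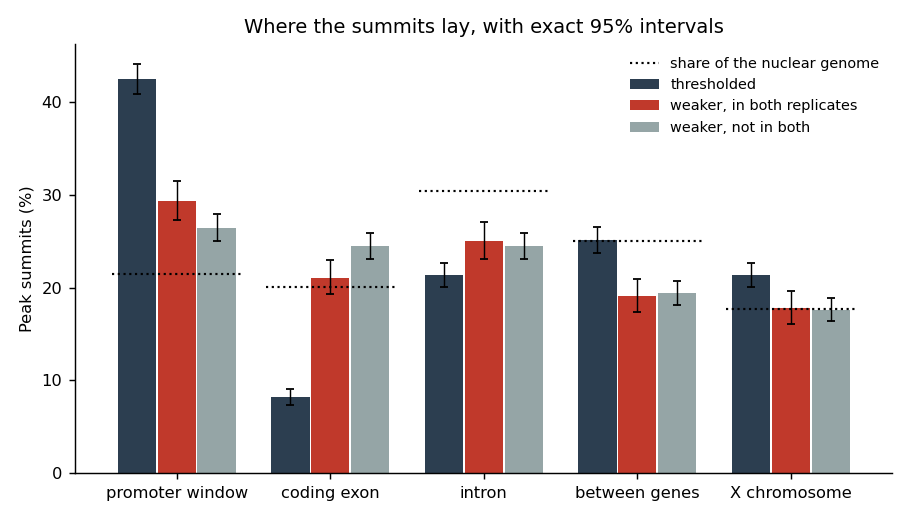
Bars give the percentage of peak summits in each location for 3870 thresholded peaks, 1903 weaker shared peaks and 3749 weaker unshared peaks, with exact 95% intervals, and the dotted lines give the share of the nuclear genome. The weaker shared peaks lie below the thresholded ones in promoter windows (29.4% and 42.5%) and above them in coding exons (21.1% and 8.19%).

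**Figure D3:**
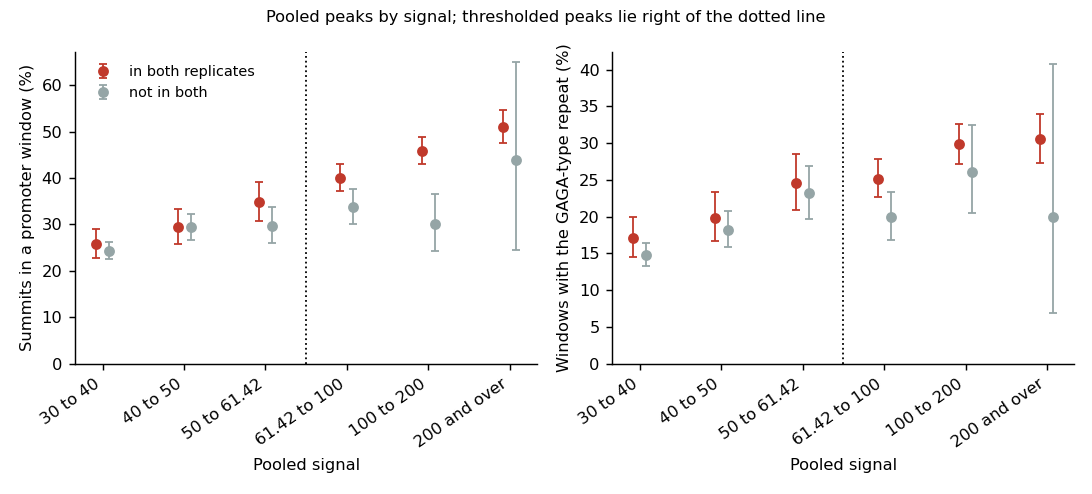
Points give the percentage of peaks in a promoter window (left) or with a GAGA-type repeat within 75 bp of the summit (right) by bin of pooled signal, for peaks found in both replicates and for the others, with exact 95% intervals. Among peaks found in both replicates both shares climb from bin to bin, and left of the dotted line, among the weaker peaks, the intervals of the shared and unshared peaks overlap in each bin.

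Promoters with a weaker shared site belonged to 651 of 19973 protein-coding genes (3.26%), and those with a thresholded site to 2010 genes (10.1%). Promoters with an unshared weaker peak belonged to 1080 genes (5.41%). Of the 651 genes, 72 (11.1%) had a thresholded summit in the window as well, near the 10.1% of all genes, and 579 had a weaker shared site and no thresholded one. Of the 559 promoter sites, 86 (15.4%) lay in the windows of genes on both strands, against 24.9% of thresholded promoter peaks. Within 500 bp upstream of the nearest 5′ end lay 16.9% of the weaker shared and 29.5% of the thresholded summits.

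Among the 20 strongest sites, 7 lay in a promoter window. The txdc-12.1 site (61.39; replicate signals 23.20 and 34.00) lay 754 bp upstream of a thioredoxin-domain gene. The moma-1 site (61.31; 7.42 and 25.81) was 96 bp upstream of a gene for a mitochondrial inner membrane protein. The T19A6.1 site (61.30; 7.34 and 33.36) sat on that gene's 5′ end, 9 bp inside it. The ril-1 site (61.25; 4.43 and 45.60), the Y97E10C.1 site (61.20; 13.96 and 35.02), the mrpl-39 site (61.17; 12.05 and 10.34) and the pifk-1 site (61.06; 31.45 and 11.53) followed. The replicates differed in which of these sites was high: ril-1 was the lowest of the 7 in replicate 1 and the highest in replicate 2, and pifk-1 was the highest in replicate 1 and next to the lowest in replicate 2.

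The other 13 of the 20 lay elsewhere. Sites in coding exons were nearest to the 5′ ends of Y71H2AL.2 (61.31), of vha-5 (61.12), which encodes a subunit of the vacuolar proton pump, and of hyl-1 (61.04), which encodes a ceramide synthase. Untranslated exons held those nearest to coq-6 (61.42), C37C3.1 (61.12), pro-1 (61.09) and snpn-1 (61.05), an intron that nearest to gap-2 (61.14), which encodes a RasGAP. Between genes lay those nearest to F22B7.9 (61.32), F55H12.4 (61.27), aly-1 (61.24), mstr-1 (61.24) and hif-1 (61.16), the gene of the hypoxia-inducible factor. The nearest 5′ end was between 504 and 17387 bp away for these 13 sites, and it need not be that of the gene that holds the summit. The summit named by coq-6 lay inside tos-1, that named by pro-1 inside mnk-1 and that named by hyl-1 inside pkg-2.

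The list reached most often by its share was that of the cytosolic ribosome. Of 81 cytosolic ribosomal protein genes, 11 (13.6%) had a weaker shared site in the promoter window, beside 3.26% of all genes, and 55 had a thresholded one. The 9 ribosomal genes with a weaker site and no thresholded one bring the genes of this list with either kind to 64 of 81. The strongest were at rpl-34 (56.86; replicate signals 14.29 and 20.19), rpl-18 (53.30; 5.2 and 30.58) and rps-25 (51.37; 14.31 and 24.07), all upstream of the 5′ end by 406 bp or less. Among 70 mitochondrial ribosomal genes, 7 (10%) had one, led by mrpl-39 and by a summit that mrps-24 and mrpl-1 share (54.84; 22.17 and 28.86). None of these 7 had a thresholded site, and 13 other genes of the list (18.6%) did.

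Of the respiratory chain and ATP synthase genes 5 of 71 (7.04%) had a weaker shared site, beside 3.26% of all genes. The strongest were at nuo-6 (54.85), ucr-1 (53.23) and asb-1 (44.92). Proteasome genes had 3 of 33 (9.09%), namely pas-5 (46.73), pas-3 (39.99) and pas-1 (35.53). The chaperone list had 6 of 65: hsp-6 (57.86; 9.98 and 38.17), for the mitochondrial Hsp70, dnj-12 (51.13; 14.59 and 11.97) and hsp-4 (47.08; 12.68 and 15.24), for the Hsp70 of the endoplasmic reticulum, were the strongest. Vesicle coat and translocation genes had 4 of 36, led by copb-2 (57.13), arf-1 (51.43) and trap-4 (45.16). Cell cycle genes had 3 of 31 (fzr-1, orc-1 and cdt-2, 39.96 to 42.59). Histones had 4 of 72, with his-3 and his-4 sharing a summit (59.65) and his-58 at 34.18. Glycolysis and the TCA cycle had 3 of 38 (gpd-3 55.18, gpd-1 50.55 and idha-1 37.74). Unshared weaker peaks were at 8.45% of the respiratory, 9.09% of the proteasome, 4.62% of the chaperone and 11.11% of the vesicle coat genes. They were at 6.45% of the cell cycle, 2.78% of the histone and 21.05% of the glycolysis and TCA cycle genes, beside 5.41% of all genes.

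Lipid and detoxification genes had promoter sites at shares of 6.06% and 3.67%, beside 3.26% of all genes. For unshared weaker peaks the shares were higher, 13.1% and 7.34%, beside 5.41% of all genes. Of 99 lipid metabolism genes 6 had a weaker shared site, the strongest at acaa-2 (59.93; 19.13 and 22.96), for a thiolase, lbp-4 (48.69; 25.03 and 11.43), for a fatty acid binding protein, and acs-1 (45.23; 20.37 and 16.80), for an acyl-CoA synthetase. Of 218 xenobiotic metabolism genes it was 8, led by dhs-19 (48.34), ugt-12 (48.15) and ugt-49 (46.00). None of these 8 had a thresholded site in the window, beside 9.17% of the whole list.

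Genes of the cuticle and of the epidermis, the tissue that secretes it, were represented by a few members each. Shares were 3.87% of the collagens, 6.90% of the hedgehog-related and patched-related and 6.25% of the epidermis and molting genes, beside 3.26% of all genes. For unshared weaker peaks they were 8.84%, 6.90% and 14.6%, beside 5.41% of all genes. Cuticle collagens had 7 of 181 genes (3.87%), among them dpy-2 (59.72; 8.80 and 28.82), col-91 (54.08; 11.75 and 23.20) and col-39 (49.14; 15.72 and 33.85). The hedgehog-related and patched-related genes had 6 of 87 (6.90%), with wrt-10 (60.67; 16.62 and 44.49), qua-1 (57.93; 16.32 and 35.99) and grl-17 (47.96; 6.82 and 17.05) the strongest. None of these 13 genes had a thresholded site in its window, beside 13.3% of all collagens and 10.3% of all hedgehog-related and patched-related genes of the lists. Epidermis and molting genes had 3 of 48, namely nhr-23 (50.91; 23.13 and 21.74), a receptor needed for molting, pan-1 (44.70) and let-413 (30.36).

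The nuclear hormone receptor genes, the family of NHR-43 itself, had weaker shared sites at 15 of 275 promoters (5.45%), beside 3.26% of all genes. Of the 15, 5 also had a thresholded site. Thresholded sites were at 27 (9.82%) of the whole list, and at 11.1% of all genes with a weaker shared site. The strongest were at nhr-132 (60.77; replicate signals 9.04 and 30.50), nhr-3 (60.72; 16.79 and 46.06) and nhr-19 (58.34; 24.13 and 18.77). Replicate 2 gave nhr-3 the highest signal of these and replicate 1 gave it to nhr-19. Among neuropeptide and insulin genes 4 of 144 (2.78%) had a site, beside 3.26% of all genes. The strongest were at nlp-27 (60.11) and nlp-29 (49.41), members of a cluster of antimicrobial peptide genes, and at ins-13 (44.23). Germline genes had 4 of 49 (8.16%), led by mes-3 (54.52), spo-11 (40.70) and cey-2 (38.98). Unshared weaker peaks reached 4% of the receptor, 4.17% of the neuropeptide and insulin and 6.12% of the germline genes, beside 5.41% of all genes.

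The remaining lists had few or no weaker shared promoter sites, at shares on both sides of the 3.26% of all genes. The chemoreceptor genes, the largest list, had 6 of 1364 (0.440%), with srw-71 (58.97), srm-3 (50.72) and str-206 (44.62) the strongest. Immune effectors and lectins had 3 of 353 (0.850%), namely clec-42 (35.91), abf-5 (35.81) and cnc-2 (35.04), and the F-box and MATH genes 2 of 412. No gene had one among 66 bZIP and bHLH factors, 53 T-box, GATA, forkhead and SOX factors, 35 cuticlins, 21 pharynx genes and 15 heterochronic genes. These lists are short, and a share of 3.26% of each comes to few genes or none. A thresholded site was found at 13 of the bZIP and bHLH genes. In the order given, unshared weaker peaks were found at 7, 0, 1, 0 and 4 genes of these lists. Other lists with 2 genes each were the aminoacyl-tRNA synthetases (6.45%), splicing factors (5.56%), translation factors (4.76%), signalling (3.70%), homeobox (1.96%) and sperm (1.85%) genes. With 1 gene each came the insulin and TOR (4.17%), intestine (3.33%), body wall muscle (2.70%) and neuron (2.44%) lists. The lists describe these genes by counts alone and were not tested.

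Inside genes, outside promoter windows, the order of the lists was in part different. Weaker shared summits lay within 829 protein-coding genes (4.15%), unshared weaker ones within 1552 (7.77%) and thresholded ones within 879 (4.4%). The 829 genes were long, with a median length of 4597 bp against 2027 bp for all genes. Of 15 heterochronic genes, which time the larval stages, 10 (66.7%) held a weaker shared summit, 80% an unshared weaker one and 53.3% a thresholded one. Their median length was 7697 bp, and they held 93.8 weaker shared summits per Mb of gene against 15.6 over all protein-coding genes. For thresholded summits these densities were 158.3 and 19.9 per Mb. Cytosolic ribosomal protein genes, with a median length of 754 bp, held 5 weaker shared summits. Their density was 77.6 per Mb, against 15.5 per Mb for thresholded summits, which lay in only 1 of the 81 genes. Proteasome genes held 3, or 54.5 per Mb, and no thresholded one. Of the 99 lipid metabolism genes, 15 (15.2%; 59.0 per Mb) held a weaker shared summit inside, 26.3% an unshared weaker and 15.2% a thresholded one. This count inside genes was added after the promoter counts were seen.

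The heterochronic gene daf-12, which encodes a steroid hormone receptor, held 4 weaker shared summits, with pooled signals from 32.55 to 37.91, and 1 thresholded one in 30968 bp. The F-box gene dre-1 held 3 (34.19 to 48.02) and lin-42, the gene of the period homologue that sets the molting rhythm, held 2 (36.13 and 38.31) beside 12 thresholded summits. The others were sea-2 (49.40), hbl-1 (44.38), for a hunchback-like factor, lin-14 (40.56), blmp-1 (37.46), kin-20 (35.07), lin-66 (34.52) and ain-1 (33.18), with 1 each. All of these values lie below 50, on both sides of the median of the weaker shared sites (42.3).

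Epidermis and molting genes held weaker shared summits in 10 of 48 cases (20.8%; 61.5 per Mb), unshared weaker ones in 27 (56.2%) and thresholded ones in 16 (33.3%; 73.2 per Mb). The apical matrix genes noah-1 and noah-2 had 3 each (up to 53.17 and 53.92), lrp-1, a megalin-like receptor gene needed for molting, had 4 (37.88 to 53.35) and the grainyhead gene grh-1 had 4 (35.35 to 50.51) with no thresholded summit. The GATA factor gene elt-3 had 2 (35.61 and 46.93). Among 275 nuclear hormone receptor genes 23 (8.36%; 32.9 per Mb) held one, beside 12.7% with an unshared weaker and 10.9% with a thresholded summit. Of the 23, nhr-34 had 4 (31.90 to 47.07) and nhr-49, a regulator of fat metabolism, had 1 (56.05). The bZIP and bHLH factors, with no promoter site, held one inside 11 of 66 genes (16.7%; unshared weaker 24.2%, thresholded 18.2%), among them hif-1 with 3 (38.53 to 50.04), hlh-30 with 2 (30.01 and 43.81) and skn-1 with 2 (36.25 and 36.67). Forkhead, GATA, T-box and SOX genes held one in 8 of 53 (15.1%; unshared weaker 13.2%, thresholded 9.43%), led by fkh-7 with 4 (41.68 to 55.70) and daf-16 with 3 (44.40 to 57.17).

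Some genes held several weaker shared sites. Of the 829 genes, 700 held 1 summit, 93 held 2, and 36 held 3 or more. The highest count was 6 in ncl-1 (III:7719729-7738105), a gene known for limiting the size of the nucleolus, with pooled signals from 31.11 to 53.04, 4 of them in coding exons, beside 6 thresholded summits. The genes gap-2 and pkg-2 held 4 each. In gap-2 (43985 bp) all were intronic and none was thresholded, and in pkg-2 (17294 bp) 3 were intronic beside 7 thresholded summits. These genes were picked out by their counts after the values were seen.

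Genes without a protein were also reached. Within 200 bp of a tRNA gene lay 50 of the sites (2.63%), against 1.39% of the unshared weaker and 6.43% of the thresholded peaks, and 19 of the 50 summits were inside the tRNA gene. The dylt-2 site printed above is one of them (56.80; replicate signals 12.58 and 38.27). These values were not tested. Near microRNA genes lay 10 sites (0.525%), against 0.240% of the unshared weaker and 0.207% of the thresholded peaks. Among them was a summit 23 bp beyond the 5′ end of the let-7 gene annotated at X:14743590-14745321 (49.47; replicate signals 19.45 and 36.61), a microRNA of the heterochronic pathway, and a summit inside mir-241 of the same family (33.25; 13.11 and 8.17). The strongest of the 10 was inside mir-58b (59.85; 15.79 and 33.01). Small nucleolar RNA genes had 15 sites nearby (0.788%), against 0.800% of the unshared weaker and 2.40% of the thresholded peaks.

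Repeats of GA were more frequent at the weaker shared summits than beside them. GAGAGA, counted on both strands within 75 bp of the summit, was present at 380 of 1903 summits (19.97%) and in 162 windows of the same length (8.51%) centred 500 bp away on the lower-coordinate side, a ratio of 2.35 (exact McNemar test, two-sided, Benjamini-Hochberg adjusted p over 17 words = 2.62e-23). Of all tiles of this length in the nuclear genome 7.63% hold it. CTGCGTCTC, the EOR-1-like word, was present at 50 summits (2.63%) and in 12 flanks (0.631%), a ratio of 4.17 (exact adjusted p = 6.88e-06), and in 0.589% of genome tiles. The other strand of that word can share 4 letters with GAGAGA, and 22 of the 50 sites with CTGCGTCTC also had GAGAGA. These words kept an exact adjusted p under 0.05 against the flank on the other side, against a flank at 1000 bp, in windows of 50 or 150 bp to each side and without either replicate.

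Other words had smaller ratios, with adjusted p from the same test. CTCTCC, a CT-rich word included as a control, can overlap the GAGAGA repeat on its other strand. It was at 10.1% of summits and 6.41% of flanks (ratio 1.58, exact McNemar test, adjusted p = 0.000180), and in 5.12% of genome tiles. The control word thus passed the threshold as well. The Sp1-type word CCGCCC was at 3.94% and 1.94% (2.03, exact adjusted p = 0.00105; 2.40% of tiles) and the E-box CACGTG at 4.62% and 2.36% (1.96, adjusted p = 0.000511; 2.52% of tiles). Neither passed against the flank on the higher-coordinate side, where the ratios were 1.47 (exact adjusted p = 0.0858) and 1.35 (adjusted p = 0.123), and the E-box also missed the threshold against flanks at 1000 bp (1.29, adjusted p = 0.228). The GATA word GATAAG was at 10.2% and 7.78% (1.31, exact adjusted p = 0.0261; 5.53% of tiles), and did not pass with summits within 50 bp (adjusted p = 0.160). The forkhead word GTAAACA was at 2.049% and 1.104% (1.86, exact adjusted p = 0.0421; 1.70% of tiles), its ratio was 1 against flanks at 1000 bp, and it missed the threshold under 8 other settings. TATAAA was less frequent at the summits (10.8%) than in the flanks (16.8%; ratio 0.646, exact adjusted p = 1.44e-06; 16.4% of tiles). With a signal of at least 50, and 513 sites left, each word of this paragraph other than the E-box missed the threshold (exact adjusted p from 0.0698 to 1).

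The receptor core was only slightly more frequent. AGGTCA was at 103 summits (5.41%, exact 95% interval 4.44 to 6.53) and in 72 flanks (3.78%), a ratio of 1.43 (exact McNemar test, adjusted p = 0.0271), beside 3.63% of genome tiles. It missed the threshold against the other flank (ratio 1.30, exact adjusted p = 0.123), against flanks at 1000 bp (1.30, adjusted p = 0.176) and in windows of 50 bp to each side (1.34, adjusted p = 0.215). The variant AGTTCA was at 9.25% of summits and 9.14% of flanks (ratio 1.01, exact adjusted p = 1; 10.1% of tiles). The extended word TCAAGGTCA, which contains AGGTCA, was at 4 summits and in 0 flanks (exact adjusted p = 0.193; 0.0709% of tiles), and the HNF4-like word CAAAGTCCA at 2 summits and in 3 flanks (adjusted p = 1; 0.113% of tiles). Of the sites printed above with the extended word, F44E2.6 had a pooled signal of 45.72 (replicate signals 4.54 and 14.89), smk-1 of 33.36 (8.50 and 29.21) and C34C12.6 of 32.51 (4.62 and 19.47). The site at mrpl-34, with a pooled signal of 53.30, also had it. All of the printed ones were higher in replicate 2 than in replicate 1, on scales that differ between the lists.

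The tRNA type of site carried the B box word. GGTTCGA was at 37 summits (1.94%) and in 18 flanks (0.946%; ratio 2.06, exact McNemar test, adjusted p = 0.0269; 1.09% of tiles). It was within 75 bp of the summit in 21 of the 50 sites near a tRNA gene (42%) and in 16 of the other 1853 (0.863%). Without the sites near tRNA genes its ratio was 1.07 (exact adjusted p = 1), and 5 other settings also ended the call. The words TTTGGCGC (0.631% of summits; 0.468% of tiles), TGACGTCA (0.683%; 0.840%), TGACTCA (1.63%; 1.37%) and TTGCGCAA (0.368%; 0.226%) had adjusted p from 0.487 to 1 against the flanks.

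**Figure D4:**
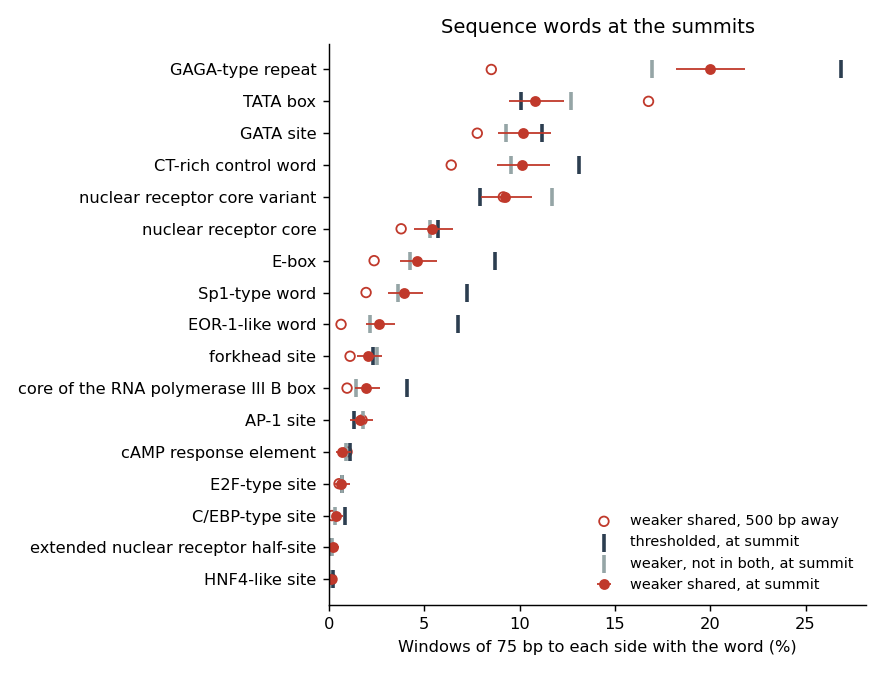
Filled points give the percentage of 1903 weaker shared summits with each word within 75 bp (bars, exact 95% intervals), open points the percentage in the windows centred 500 bp away, and ticks the percentage at thresholded and at unshared weaker summits. The GAGA-type repeat shows the widest gap between summit (19.97%) and flank (8.51%), and the TATA box the opposite order (10.8% and 16.8%).

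Among all words of 6 letters, with both strands joined, GAGAGA had the smallest p of those more frequent at the summits. Of all these words 203 (9.76%) were more frequent at the summits than in the flanks and 143 (6.88%) less frequent, at an adjusted p under 0.05 (exact McNemar test, Benjamini-Hochberg over all of them). The 10 with the smallest p held 3 that were more frequent and overlap each other: GAGAGA, then AGAGAG with a ratio of 2.55 and AGAGAC with a ratio of 2.22. The other 7 were less frequent and consist mostly of A and T, led by AAAATT at 32.4% of summits and 51.1% of flanks. Their ratios ran from 0.585 to 0.747. The summits had a G+C content of 40.1% ± 6.97 (SD, n = 1903 windows) and the flanks 36.2%. Thresholded summits had 43.2% and unshared weaker summits 39.3%. The part of G+C content in these counts, and in the comparisons of words between classes below, was not tested.

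The repeat was concentrated near the summits. In bins of 25 bp, GAGAGA was present in 4.99% of the weaker shared sites just before the summit and in 1.73% in the last bin before 500 bp, and TATAAA in 1.89% and 2.84%. By location, the repeat was at 25.04% of the promoter summits, 24.2% of those between genes and 19.9% of those in introns, and at 10.97% of those in coding exons. Among thresholded peaks the same shares were 25.8%, 32.7%, 28.3% and 10.1%.

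**Figure D5:**
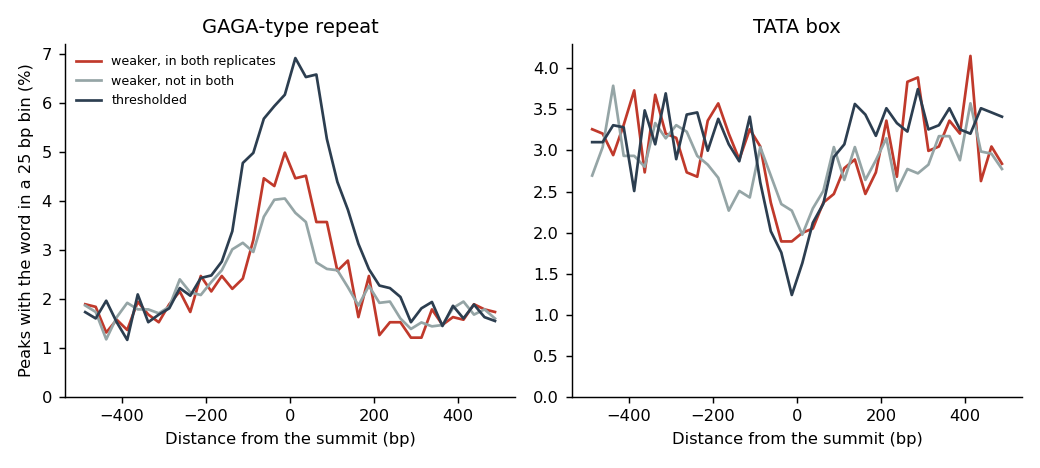
Lines give the percentage of peaks with a GAGA-type repeat (left) or a TATA box (right) in each 25 bp bin, by distance from the summit in bp, for weaker shared, weaker unshared and thresholded peaks. The repeat forms a peak centred on the summit in all 3 classes, lower in the weaker shared than in the thresholded peaks, and the TATA box forms a trough.

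Compared with thresholded peaks, 6 of the 17 words were less frequent at weaker shared summits and 0 more frequent (Fisher's exact test, Benjamini-Hochberg over 34 comparisons, adjusted p under 0.05). CTGCGTCTC was at 2.63% against 6.74% (odds ratio 0.373, exact adjusted p = 2.63e-10), CACGTG at 4.62% against 8.71% (0.508, adjusted p = 9.45e-08) and GAGAGA at 19.97% against 26.85% (0.680, adjusted p = 9.45e-08). CCGCCC was at 3.94% against 7.26% (0.524, exact adjusted p = 3.13e-06) and GGTTCGA at 1.94% against 4.11% (0.463, adjusted p = 6.39e-05). The last of the 6 was the control word CTCTCC, at 10.1% against 13.1% (0.747, exact adjusted p = 0.00630). GGTTCGA no longer passed without peaks near tRNA genes (0.5545, exact adjusted p = 0.166), nor CTCTCC with summits within 50 bp (0.812, adjusted p = 0.209). AGGTCA was at 5.41% of the weaker shared and 5.71% of the thresholded summits (0.945, exact adjusted p = 0.760). Among the 513 weaker shared sites with a signal of at least 50, none of the 6 passed, with an odds ratio of 0.887 for GAGAGA (Fisher's exact test, adjusted p = 0.896) and 0.532 for CTGCGTCTC (adjusted p = 0.1025).

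Compared with unshared weaker peaks, GAGAGA was more frequent at the shared summits (19.97% against 16.96%, odds ratio 1.22, Fisher's exact test, adjusted p = 0.0254) and AGTTCA less frequent (9.25% against 11.7%, odds ratio 0.770, adjusted p = 0.0254). AGTTCA did not pass within the bins of pooled signal described above (odds ratio 0.809, exact conditional test, adjusted p = 0.370), with summits within 50 or 200 bp (adjusted p = 0.123 and 0.0975) or with a match required in only 1 replicate, whichever it was. The other 15 words did not pass. With no signal minimum 6 of them did: CTGCGTCTC (2.00), CCGCCC (1.37), CTCTCC (1.35), GATAAG (1.29), CACGTG (1.28) and TATAAA (0.793), with exact adjusted p from 3.97e-06 to 0.0215. TATAAA also passed without a match in replicate 2 being required (0.808, exact adjusted p = 0.0380). Within bins of pooled signal the GAGAGA shares were 17.1% and 14.8%, 19.9% and 18.2%, and 24.6% and 23.2%, from the lowest bin to the highest. With the bins held fixed the odds ratio was 1.13 (Mantel-Haenszel, exact conditional test, adjusted p = 0.499), and with a match required in replicate 2 only it turned to 0.941 (adjusted p = 0.826).

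The density of sites varied between chromosomes from 15.1 per Mb on V to 25.5 per Mb on III, with 16.5 on IV, 19.1 on X, 19.6 on II and 20.5 on I. Thresholded peaks had their highest density on X (46.6 per Mb), where the weaker shared sites were 0.411 per thresholded peak, the lowest of the 6 chromosomes. Of the gene of the mapped factor, nhr-43 on IV, the surroundings within 10 kb of the 5′ end held 8 thresholded peaks, with pooled signals from 89.78 to 659.25. They also held 1 weaker shared site, at IV:11905738-11906061 (30.35), 6310 bp downstream. Unshared weaker peaks of higher signal lay on either side of that site, at IV:11905041-11905364 (33.53) and IV:11906615-11906938 (41.06). The transgene carries the tagged gene, and the part of its copies in the signal at this locus was not tested.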

How the data were processed

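ChIP-seq peak lists of 2 biological replicates were used. Per the file headers and read-me files, the authors deposited relaxed lists per replicate and for the pooled reads, and an IDR thresholded list, on ce11 and ce10. The signal of each peak and its −log10 q-value are the authors' deposited values. The scale of the signal belongs to its list. Names for the aligner and peak caller were not given in the sources used here. Depth is unknown, and control libraries were not analysed here.

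From these lists, summits were matched within 100 bp, mitochondrial peaks were left out, and ce11 summits were placed on WBcel235 (RefSeq) with the Ensembl release 115 annotation. Coordinates count from 1. Location and words were compared with Fisher's exact tests and exact McNemar tests (SciPy 1.17.1), adjusted by Benjamini-Hochberg with a threshold of 0.05. Mantel-Haenszel odds ratios used statsmodels 0.14.6, with an exact conditional p over the strata. Intervals are exact Clopper-Pearson intervals for counting error only. The tests were checked on simulated data.

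The sites, gene lists and words were chosen with earlier results of these data known. Named genes are those nearest to the 20 strongest sites, the 3 strongest of each list with 3 or more genes reached, the 10 sites best ranked in both replicates, those at the signal limit and nhr-43. Genes named for summits inside them, near noncoding genes or as the rest of a short list were chosen after their values were seen. The alternatives were other summit distances, signal limits, promoter windows, flanks and word windows, 1 replicate alone, and ce10 lists. Signal bins, tRNA neighbours and thresholded peaks found in both replicates were added after the data were seen.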

Additional observations from a re-analysis of the deposited data

How the results depend on the processing

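Each peak list gives values per peak without read counts, so depth and its precision are unknown. With 2 replicates of 1 condition and pooled peaks, the tests describe the peaks and not the spread between animals. No paired analysis was possible because there is 1 group. The ce10 lists gave 1929 sites. The number of sites was 2800 to 4106 with a match required in 1 replicate only, 961 with summits within 50 bp, 3125 within 200 bp, 513 with a signal of at least 50 and 3731 with no minimum. Genes with a site in the promoter window numbered 933 to 1269 with a match required in 1 replicate only, 351 and 986 at 50 and 200 bp, 211 at a signal of at least 50, 1148 with no minimum, and 426 and 1122 with windows of 500 and 100 bp or of 2000 and 500 bp. Words of 6 letters more frequent at the summits numbered 284 to 351 with 1 replicate alone, 83 and 318 at 50 and 200 bp and 50 at a signal of at least 50, and less frequent ones 73 at 50 bp and 41 at that signal. Promoters and coding exons against thresholded peaks, and GAGAGA and CTGCGTCTC against flanks, kept their call under each alternative. Against thresholded peaks, at a signal of at least 50, CTGCGTCTC had an odds ratio of 0.532 and GAGAGA of 0.887, and X had 0.754 there and 0.822 at 50 bp. Against unshared peaks GAGAGA had 1.08 at that signal, 1.21 and 1.16 with word windows of 50 and 150 bp to each side, 1.13 within signal bins and 0.941 to 1.28 with 1 replicate alone, where the lower value turned the direction. Coding exons had 0.895 at 200 bp, 0.830 at a signal of at least 50, 0.8655 with the longer promoter window, 0.8604 within signal bins and 0.857 to 0.878 with 1 replicate alone. Promoters had 1.07, 1.27, 1.02 and 1.097 in the same order and 1.04 to 1.135 with 1 replicate alone. AGGTCA against flanks had a ratio of 1.43 at 50 bp, 2.08 at a signal of at least 50, 1.30 with either other flank and 1.34 in the shorter window, and GTAAACA had 1 against flanks at 1000 bp. Of the odds ratios and ratios given here, the higher one of GAGAGA and the lower one of coding exons with 1 replicate alone passed the threshold, the others did not, and the cause was not tested. Of 1006 alternative values in all, 770 kept their direction and side of the threshold or stayed within 1.5 times.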
